A study of Mus musculus with 24 samples.

Results

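The 9 chemokine receptors Ccr1, Ccr2, Ccr7, Cx3cr1, Cxcr4, Cxcr6, Ackr1, Ackr3 and Ccrl2 were followed in choroidal RNA from mice with and without Ceacam1, with and without laser treatment. They were taken by name from the normalized counts of 56065 genes in 24 libraries. Without laser there were 4 wild type and 4 Ceacam1-/- libraries, and with laser there were 9 wild type and 7 Ceacam1-/- libraries. All mice were on a C57BL/6J background, and the Ceacam1-/- mice lacked exons 1 and 2 of Ceacam1, which encodes a cell adhesion molecule. Knockout mice were homozygous, wild type mice were littermates from heterozygous breeding, both sexes were used, and mice were 6 to 8 weeks old where the methods state no other age. In the laser groups, 6 spots were set in each eye to induce choroidal neovascularization, a model in which burns break the membrane under the retinal pigment epithelium and new vessels grow from the choroid. The interval between laser and collection, the sex of each mouse and the number of mice per library are not given in the labels.

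Chemokine receptors read gradients of small secreted proteins and guide leukocytes from blood into tissue. The conventional members of the family couple to inhibitory G proteins, activate phosphoinositide 3-kinase gamma and Rac, and are switched off by receptor kinases and arrestins. Atypical receptors bind their ligands without this G protein signal and take them up, carry them across endothelium or hold them at the surface. In the injured choroid, Ccl2 and Ccr2 are known for bringing monocytes to the lesion, and Cx3cr1 is a classical label of microglia and resident macrophages.

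The normalized counts of a library summed to between 23704346 and 35094410. These sums follow from the scaling of the deposited table, so the read depth behind a value is unknown and no counting interval was computed. Markers of the choroid and its neighbours were present in every group, with the pigment cell gene Mlana at group medians of 5867 to 10166, the endothelial gene Pecam1 at 2123 to 2808 and the retinal pigment epithelium gene Rpe65 at 12802 to 33812 normalized counts. The skeletal muscle actin Acta1 was at group medians of 31806 to 127275.

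Several libraries stood apart. Ceacam1-/- laser libraries 14, 15 and 18 had the lowest median correlations with the other libraries, 0.816, 0.854 and 0.8304, followed by library 23 with 0.857 and library 21 with 0.874. Their 8 summed photoreceptor markers reached 938525, 535323 and 1001061 normalized counts, against 8309.9 to 142561 in Ceacam1-/- laser libraries 4 to 7. Among the other libraries, the sum was highest in library 23 (Ceacam1-/- without laser, 581139) and library 21 (wild type without laser, 533175). The 12 summed myeloid markers were 28760.4, 25104 and 17381 in libraries 14, 15 and 18, against 64039.5 to 94496 in libraries 4 to 7. Tests of the receptors and counts of genes called per list in the Ceacam1-/- laser group are therefore given with and without these 3 libraries. Values of other single genes, levels per kb and ratios to myeloid markers include them unless stated.

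Library numbers fall into 3 runs, 1 to 7, 11 to 19 and 21 to 28, and the labels do not say what a run is. All 8 libraries without laser are in the run 21 to 28, so the run and the laser cannot be told apart. The runs 1 to 7 and 11 to 19 both hold wild type laser libraries (3 and 6) and Ceacam1-/- laser libraries (4 and 3), and libraries 14, 15 and 18 are all the Ceacam1-/- libraries of the run 11 to 19.

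Ceacam1 itself, counted over the whole gene, was at 958, 5027, 1242 and 4596 normalized counts in the wild type and at 405, 505, 508 and 1171 in the Ceacam1-/- libraries without laser. With laser it ranged from 774 to 8367 (median 996) in wild type and from 67.8 to 905 (median 335) in Ceacam1-/- mice. The highest Ceacam1-/- value lay above the lowest wild type value in both settings, library 28 above 21 and library 15 above 13. The log2 fold changes of -1.95 without laser and -2.17 with laser did not pass the threshold given below (adjusted p = 0.999 and 0.104). Reads of the exons that remain are part of these values, so the whole-gene count is a limited check of the genotype labels.

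Promoter sequences are shown for Ccr1 and Ccr2, whose changes with laser were called in both genotypes, for Cxcr4, called in wild type, and for Ackr3, called in neither. They are RefSeq windows of 300 bases, 250 before and 50 after the start site, which 8 of the 9 receptors have. The RefSeq table gives GRCm38.p6 as its build, and each window shown was placed on GRCm39 by a single exact match. Ccr1 lies at chr9:123768680-123768979 on the minus strand, Ccr2 at chr9:123901970-123902269 on the plus strand, Cxcr4 at chr1:128519987-128520286 on the minus strand and Ackr3 at chr1:90131452-90131751 on the plus strand. They are printed 5′ to 3′ in the direction of the gene, and capitals mark the motif letters found.
Ccr1: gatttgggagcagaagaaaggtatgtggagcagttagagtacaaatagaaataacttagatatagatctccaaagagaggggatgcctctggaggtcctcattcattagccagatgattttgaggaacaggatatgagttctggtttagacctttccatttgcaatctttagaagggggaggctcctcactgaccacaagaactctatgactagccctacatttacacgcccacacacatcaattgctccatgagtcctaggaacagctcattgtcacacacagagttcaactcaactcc
Ccr2: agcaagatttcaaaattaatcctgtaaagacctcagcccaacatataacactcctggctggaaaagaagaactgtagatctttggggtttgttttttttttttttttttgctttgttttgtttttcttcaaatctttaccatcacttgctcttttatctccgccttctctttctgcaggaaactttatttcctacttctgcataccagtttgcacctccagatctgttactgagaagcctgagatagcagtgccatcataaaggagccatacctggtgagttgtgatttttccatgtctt
Cxcr4: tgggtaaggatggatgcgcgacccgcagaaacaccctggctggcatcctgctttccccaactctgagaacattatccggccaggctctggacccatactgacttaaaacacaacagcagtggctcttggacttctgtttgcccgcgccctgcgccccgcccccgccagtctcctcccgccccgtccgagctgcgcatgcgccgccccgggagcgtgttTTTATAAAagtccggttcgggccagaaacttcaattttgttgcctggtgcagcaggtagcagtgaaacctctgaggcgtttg
Ackr3: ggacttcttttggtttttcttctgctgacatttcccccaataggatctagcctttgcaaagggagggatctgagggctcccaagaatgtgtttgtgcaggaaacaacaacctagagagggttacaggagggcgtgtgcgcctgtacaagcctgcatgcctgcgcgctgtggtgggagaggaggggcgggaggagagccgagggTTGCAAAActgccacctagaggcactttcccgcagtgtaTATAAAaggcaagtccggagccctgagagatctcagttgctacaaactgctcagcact

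Of 4 motifs searched on both strands, the PU.1 core (GAGGAAG), C/EBP letters (TTNNGCAA), the hypoxia response core (ACGTG) and the TATA letters (TATAAA), none was found in the windows of Ccr1, Ccr2, Cx3cr1, Cxcr6 and Ackr1. The TATA letters were found in Cxcr4, on both strands in 1 overlapping stretch that starts at position -32 from the start site, and in Ackr3 at position -8. Ackr3 also held the C/EBP letters at -47, and all 3 windows of Ccrl2 held the hypoxia response core. Among 32851 mouse promoters of the same length, these motifs were found in 13.6%, 10.8%, 19.6% and 13.6% in the order given. The windows differed in base composition. Ccr2 had a GC content of 38.0% and Ccr1 of 44.0%, each with 1 CpG, whereas Cxcr4 had 59.3% and 20 CpG, against medians of 52.7% and 7 over all promoters. The RefSeq start of Ccr2 lies 238 bases downstream of the GENCODE gene start, so nearly all of its window is annotated as part of the gene.

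In wild type mice 5 of the 9 receptors, Ccr1, Ccr2, Ccr7, Cx3cr1 and Cxcr4, rose with laser, by 11.7-, 7.53-, 9.26-, 3.88- and 2.36-fold. Each of the 5 was higher in all 9 laser libraries than in any of the 4 without laser. The other 4, Cxcr6, Ackr1, Ackr3 and Ccrl2, did not pass the threshold. In Ceacam1-/- mice 3 receptors, Ccr1, Ccr2 and Ccr7, rose by 16.8-, 7.03- and 4.58-fold. The folds of Ccr7 in wild type and of Ccr1 in Ceacam1-/- mice depended on 1 library each without laser, 21 and 25, without which the log2 fold changes were 2.35 in place of 3.21 and 3.26 in place of 4.07. Differences were tested by limma on log2 of the normalized count plus 1 across all genes with a mean of at least 10, with a threshold of 0.05 for the Benjamini-Hochberg adjusted p. On this scale the added 1 narrows the changes of low genes. A single very low library can widen them, as libraries 21 and 25 did for Ccr7 and Ccr1. In wild type, 5.28% of the 19950 genes tested passed in either direction and 4.23% passed as higher, and 4.50% had all laser libraries above all libraries without laser. In Ceacam1-/- mice 3.72% of genes passed, 2.07% as higher, and 1.17% had all laser libraries above all others. The medians of all genes were -0.10 and 0.019 on the log2 scale. In bulk tissue, fewer cells of a type and less RNA per cell cannot be told apart.

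**Figure D1:**
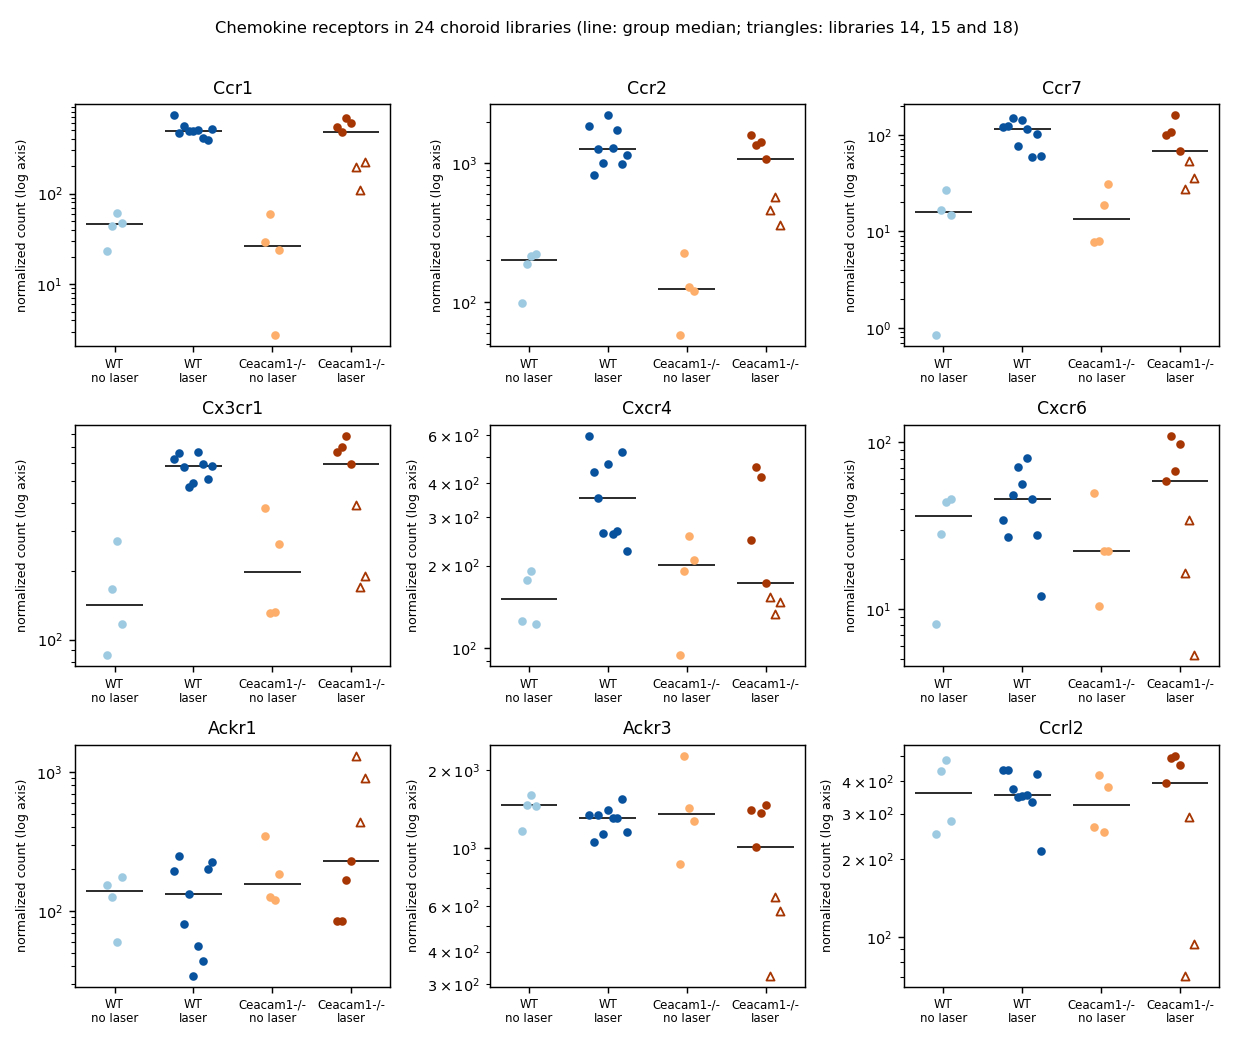
Normalized counts (log axis) of the 9 receptors in each of the 24 libraries, by genotype and laser; lines are group medians and triangles are Ceacam1-/- laser libraries 14, 15 and 18. Ccr1 and Ccr2 of all laser libraries lie above those without laser in both genotypes, and the triangles lie below the other 4 libraries of their group for 8 receptors and above them for Ackr1.

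Ccr1, a receptor of monocytes and macrophages for Ccl3, Ccl6 and Ccl9, lies at chr9:123762161-123768734 of GRCm39. Without laser it was at 23.2, 44.2, 61.2 and 47.3 normalized counts in wild type and at 29.2, 59.03, 2.75 and 23.7 in Ceacam1-/- libraries. With laser it ranged from 389 to 728 (median 494) in wild type, and in Ceacam1-/- mice libraries 4 to 7 were at 538, 479, 682 and 606 and libraries 14, 15 and 18 at 196, 110.4 and 222. No laser library of either genotype overlapped with one without laser. The log2 fold change was 3.55 ± 0.52 (SE, adjusted p = 1.33e-04) in wild type and 4.07 ± 0.54 (adjusted p = 1.67e-04) in the knockout, and 4.82 ± 0.52 (adjusted p = 5.04e-06) without libraries 14, 15 and 18. Two-sided exact permutation tests gave p = 0.0014 in wild type and p = 0.00303 in Ceacam1-/- mice, the smallest these group sizes allow. Without library 25, at 2.75, the Ceacam1-/- change was 3.26 (adjusted p = 5.92e-04), and with a pseudocount of 10 it was 3.42, both past the threshold. The Ceacam1-/- call was lost when only the 11 libraries compared were in the fit (adjusted p = 0.0614).

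Ccr2, the receptor of inflammatory monocytes for Ccl2, Ccl7 and Ccl12, lies near Ccr1 at chr9:123901982-123913594. Without laser its values were 98.7, 189, 217 and 221 in wild type and 58.01, 227, 129 and 121 in Ceacam1-/- libraries. Laser libraries ranged from 819.7 to 2215 (median 1273) in wild type and from 359.9 to 1593 (median 1084) in Ceacam1-/- mice. The lowest 3 of the latter were libraries 14, 15 and 18, at 462, 575 and 359.9, still above every library without laser. The log2 fold changes were 2.91 ± 0.39 (adjusted p = 5.20e-05) in wild type and 2.81 ± 0.40 (adjusted p = 3.25e-04) in the knockout, and 3.48 ± 0.35 (adjusted p = 2.36e-06) in the latter without the 3 libraries. Neither call was lost under any alternative or by leaving out any single library. The highest adjusted p in Ceacam1-/- mice among the alternatives was 0.0479, close to the threshold. Its transcripts share 3.67% of their stretches of 31 bases with other genes.

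Ccr7, which guides mature dendritic cells and naive T cells to lymph nodes along Ccl19 and Ccl21, lies at chr11:99035022-99045911. Its values without laser were 0.8405, 16.8, 26.9 and 14.95 in wild type and 7.82, 7.91, 18.7 and 31.2 in Ceacam1-/- libraries. Wild type laser libraries ranged from 58.7 to 152 (median 116) and Ceacam1-/- laser libraries from 27.7 to 159.6 (median 67.9). The wild type groups did not overlap, whereas Ceacam1-/- library 14, at 27.7, lay under library 28, at 31.2. The log2 fold change was 3.21 ± 0.57 (adjusted p = 0.00111) in wild type and 2.19 ± 0.59 (adjusted p = 0.0389) in the knockout, and 2.81 ± 0.63 (adjusted p = 0.00601) without libraries 14, 15 and 18. Without library 21, at 0.8405, the wild type change was 2.35 (adjusted p = 0.00844), and with a pseudocount of 10 it was 2.29, both past the threshold. The Ceacam1-/- call was lost when any one of libraries 4, 5, 6, 7, 23, 24 or 25 was left out, with log2 fold changes of 1.94 to 2.33 and adjusted p of 0.0515 to 0.152. Its transcripts share 5.42% of their 31-base stretches with Gm57398, a noncoding gene on the other strand.

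Cx3cr1, the receptor for the membrane-bound chemokine Cx3cl1, lies at chr9:119877749-119898945. Without laser it was at 85.2, 167, 272 and 117 in wild type and at 377, 131, 132 and 263 in Ceacam1-/- libraries. All 9 wild type laser libraries lay in a narrow range, from 471 to 670.3 (median 579). Ceacam1-/- libraries 4 to 7 lay at 669, 706, 788 and 592 and libraries 14, 15 and 18 at 389.6, 170.4 and 189.9, so that 15 and 18 overlapped with the libraries without laser. On the log2 scale the change was 1.96 ± 0.38 (adjusted p = 0.00262) in wild type and 1.08 ± 0.39 (adjusted p = 0.121) in the knockout, and 1.75 ± 0.32 (adjusted p = 9.46e-04) in the latter without the 3 libraries. Leaving out library 15 or 23 alone also brought it past the threshold (1.30, adjusted p = 0.0485, and 1.38, adjusted p = 0.0331).

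Cxcr4, the signalling receptor for Cxcl12 on leukocytes and sprouting endothelium, lies at chr1:128515936-128520044. Without laser it was at 125, 177, 191 and 123 in wild type and at 94.1, 191, 257 and 210.04 in Ceacam1-/- libraries. Wild type laser libraries ranged from 225 to 596 (median 354), all above those without laser. Ceacam1-/- laser libraries ranged from 134 to 459 (median 173), and 5 of these 7 lay within the range of the libraries without laser. The log2 fold change was 1.24 ± 0.34 (adjusted p = 0.0357) in wild type and 0.32 ± 0.36 (adjusted p = 0.649) in the knockout, and 0.77 ± 0.37 (adjusted p = 0.205) in the latter without libraries 14, 15 and 18. The wild type call was close to the threshold and was lost when any one of libraries 1, 2, 3, 12, 17, 21, 22 or 27 was left out, with log2 fold changes of 1.14 to 1.31 and adjusted p of 0.0505 to 0.136.

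Cxcr6, a receptor of activated T cells and natural killer cells for Cxcl16, lies at chr9:123635534-123640825 within Fyco1, which is read from the other strand. It shares none of its 31-base stretches with another gene. Its values without laser were 8.099, 28.4, 43.8 and 45.7 in wild type and 50.02, 10.4, 22.4 and 22.4 in Ceacam1-/- libraries, and laser libraries ranged from 12.03 to 80.3 (median 46.1) and from 5.29 to 109.9 (median 58.5). Laser and no-laser libraries overlapped in both genotypes. On the log2 scale the change was 0.57 ± 0.65 (adjusted p = 0.643) in wild type and 0.76 ± 0.68 (adjusted p = 0.554) in Ceacam1-/- mice. With any single library left out, these changes ranged from 0.036 to 0.82 and from 0.41 to 1.21, and neither passed. Libraries 14, 15 and 18, at 16.5, 34.2 and 5.29, held the lowest Cxcr6 values of the Ceacam1-/- laser group. Without them, the other libraries of this group lay at 58.5 to 109.9, above all 4 without laser. This setting was chosen after seeing the data, and the share of all genes separated in it was not computed. Its log2 fold change of 1.78 ± 0.58 was just short of the threshold (adjusted p = 0.0548). The change passed when libraries 21 and 23, also chosen after seeing the data, were left out as well (2.15, adjusted p = 0.00849). It also passed over all libraries with array weights (2.25, adjusted p = 0.00721). With only the laser libraries of the run 11 to 19 in the fit, the sign was opposite (-0.60, adjusted p = 0.617).

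Ackr3, an atypical receptor that scavenges Cxcl12, had the highest count of the 9 in each library without laser and lies at chr1:90131689-90144473. It was at 1164, 1469, 1600.2 and 1449 in wild type and at 865, 2261, 1427 and 1266 in Ceacam1-/- libraries without laser. With laser it ranged from 1056 to 1548 (median 1303) in wild type and lay at 1402, 1005, 1362 and 1459 in Ceacam1-/- libraries 4 to 7. Libraries 14, 15 and 18 were at 323, 650.1 and 572, below all other 21 libraries. The log2 fold changes were -0.14 ± 0.30 (adjusted p = 0.809) in wild type, -0.68 ± 0.31 (adjusted p = 0.224) in Ceacam1-/- mice and -0.084 ± 0.21 (adjusted p = 0.866) in the latter without the 3 libraries.

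Ccrl2, an atypical receptor that binds chemerin (Rarres2), lies at chr9:110883554-110886591. It was at 251, 440.02, 485 and 280.3 in wild type and at 268, 423, 255 and 379 in Ceacam1-/- libraries without laser. Wild type laser libraries ranged from 214 to 442 (median 354) and Ceacam1-/- libraries 4 to 7 lay at 395, 492, 503 and 465. Libraries 14 and 18 were the lowest of all 24, at 70.7 and 94.1, and library 15 was at 291. The log2 fold change was 0.032 ± 0.41 (adjusted p = 0.971) in wild type and -0.29 ± 0.43 (adjusted p = 0.738) in Ceacam1-/- mice, the latter with the opposite sign without the 3 libraries, 0.51 ± 0.24 (adjusted p = 0.204).

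Ackr1, the Duffy antigen receptor of venules and red cells, was higher in libraries 14, 15 and 18 than in libraries 4 to 7, whereas the other 8 receptors were lower in the former. It lies at chr1:173159453-173161317 on the minus strand. Without laser it was at 153, 127, 60.3 and 176 in wild type and at 345, 125, 121 and 186 in Ceacam1-/- libraries. Wild type laser libraries ranged from 34.3 to 249 (median 132) and Ceacam1-/- libraries 4 to 7 were at 84.9, 85.1, 166 and 227. Libraries 14, 15 and 18 were at 1306, 435 and 909.6, the highest of all 24. The log2 fold change was -0.15 ± 0.66 (adjusted p = 0.914) in wild type and 0.67 ± 0.69 (adjusted p = 0.613) in the knockout, and the latter was -0.45 ± 0.60 (adjusted p = 0.706) without the 3 libraries.

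The start of Ackr1 overlaps on the same strand with Cadm3, a cell adhesion gene of neurons at chr1:173160825-173195452. In the annotation used here, 25.6% of the 31-base stretches of Ackr1 transcripts are found in other genes, 23.03% in Cadm3, so reads from there could be assigned to either gene. Cadm3 was at 996, 556 and 1137 in libraries 14, 15 and 18, at 759 and 721 in libraries 21 and 23, and at 102 to 487 in the other 19. Across the 24 libraries, Pearson's r between Ackr1 and Cadm3, for deviations of log2 values from their group means, was 0.81, and it was 0.67 over the 21 libraries without 14, 15 and 18. Against the venular gene Selp, r was -0.38 and -0.095, and against Vwf -0.38 and 0.053. These are descriptions over libraries that share tissue composition and scaling. The 6 venular endothelial markers summed to 2566, 5749.7 and 3787 in libraries 14, 15 and 18 and to 10277 to 11816 in libraries 4 to 7. The part of Cadm3 reads or of retinal tissue in the Ackr1 values was not tested.

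**Figure D2:**
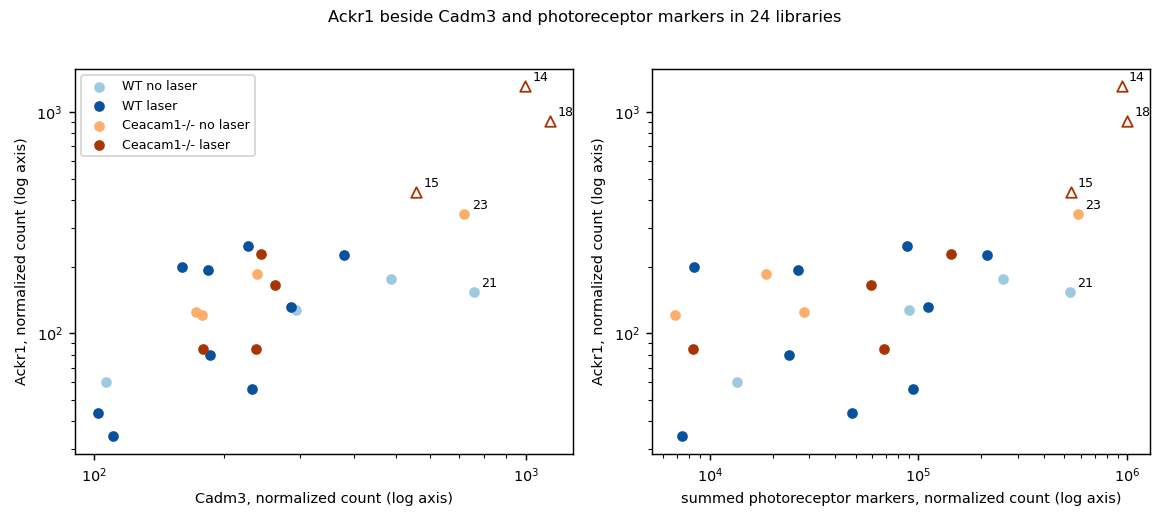
Ackr1 against Cadm3 (left) and against the sum of 8 photoreceptor markers (right), in normalized counts on log axes, 1 point per library, with triangles for libraries 14, 15 and 18. The 3 triangles combine the highest Ackr1 values of all 24 libraries (435 to 1306) with Cadm3 at 556 to 1137.

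**Figure D3:**
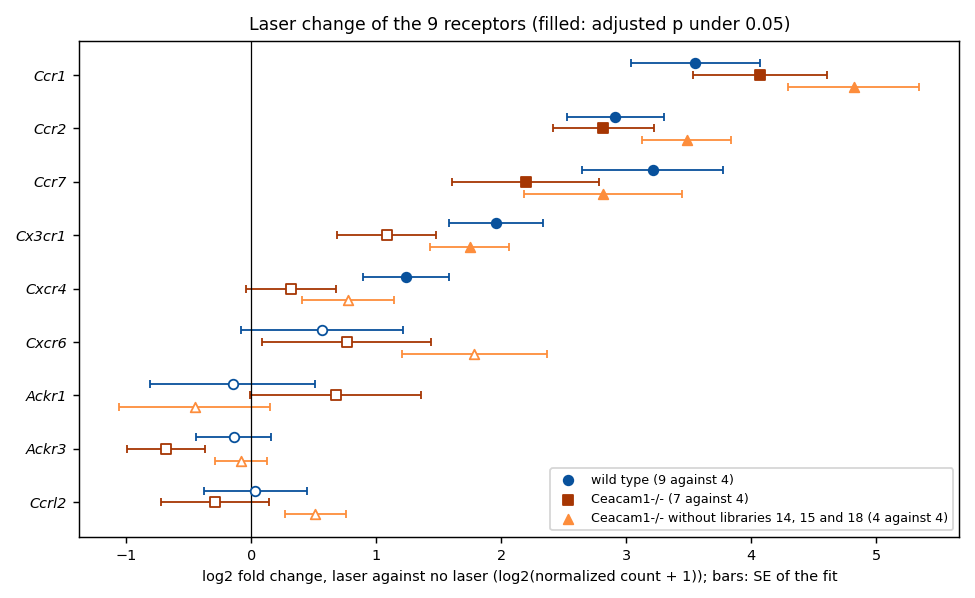
Log2 fold change of each receptor, laser against no laser, with the SE of the fit, for wild type, for Ceacam1-/- and for Ceacam1-/- without libraries 14, 15 and 18; filled symbols have an adjusted p under 0.05. Filled symbols number 5, 3 and 4 in that order, all at positive values.

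Without libraries 14, 15 and 18, 4 receptors passed the laser test in Ceacam1-/- mice (Ccr1, Ccr2, Ccr7 and Cx3cr1), where 10.2% of genes passed and 7.6% passed as higher. A fit with only the laser libraries of the run 1 to 7, of both genotypes, again gave 5 receptors in wild type (6.68% of genes). A fit with only those of the run 11 to 19 gave 4 in wild type (3.72% of genes). In the latter fit, libraries 14, 15 and 18 are the Ceacam1-/- laser group. It gave 5 receptors in Ceacam1-/- mice (14.5% of genes), with Ccr1, Ccr2 and Ackr1 higher and Ackr3 and Ccrl2 lower. All of these use the same libraries without laser, which come from the run 21 to 28.

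No receptor passed between the genotypes. Without laser, 0 of 9 passed between Ceacam1-/- and wild type mice by limma, where 0% of 20057 genes passed, and 0 of 9 had an unadjusted p under 0.05, against 1.53% of all genes. The widest log2 differences were those of Ccr1 (-1.07 ± 0.83) and Ackr1 (0.55 ± 0.46). That of Ccr1 was -0.26 without library 25 and -0.43 with array weights, and that of Ackr1 was -0.065 with array weights. With laser, 0 of 9 passed by limma, where 0.0202% of 19757 genes passed, and 3 had an unadjusted p under 0.05, against 22.7% of all genes. These were Cxcr4 (-0.69 ± 0.30, adjusted p = 0.191), Ackr1 (1.38 ± 0.61, adjusted p = 0.198) and Ackr3 (-0.58 ± 0.26, adjusted p = 0.206). Two-sided exact permutation tests, without adjustment over the 9 receptors, gave p = 0.0454 for Cxcr4 and p = 0.0472 for Ackr3, both lower in Ceacam1-/- mice, and 0.0573 or more for the other 7. Without libraries 14, 15 and 18 their differences were -0.24 ± 0.31, 0.25 ± 0.53 and 0.017 ± 0.13, and 0 of 9 passed, where 0.0104% of genes passed. In this setting 8.4% of all genes and 1 of the 9 had an unadjusted p under 0.05 by limma, Cxcr6 (1.02 ± 0.42, adjusted p = 0.519). Cx3cr1 was at 0.27 ± 0.13 (adjusted p = 0.617) and Ccrl2 at 0.37 ± 0.18 (adjusted p = 0.616). For Cx3cr1, Cxcr6 and Ccrl2, all higher in Ceacam1-/- mice, the same permutation tests gave p = 0.0294, 0.0378 and 0.0434 in this setting. With all libraries they gave 0.261, 0.991 and 0.345, and all 3 differences were below 0. The other 6 had 0.221 or more without the 3 libraries. That setting was chosen after seeing the data and leaves out the 3 lowest Ceacam1-/- laser values of Cx3cr1, Cxcr6 and Ccrl2. Permutation tests were run on the 9 receptors only, without adjustment, so no share over all genes can be set beside them.

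The 2 runs of laser libraries gave different genotype differences. Within the run 1 to 7, 4 Ceacam1-/- against 3 wild type libraries gave 0 of 9 (0% of genes). Within the run 11 to 19, libraries 14, 15 and 18 against 6 wild type libraries gave 8 of 9, where 37.9% of genes passed. There Ccr1 (-1.46), Ccr2 (-1.55), Ccr7 (-1.20), Ccrl2 (-1.40), Cx3cr1 (-1.23), Cxcr4 (-1.13) and Ackr3 (-1.39) were lower and Ackr1 (3.15) higher on the log2 scale. These are the libraries that stood apart in retinal and myeloid markers, whose part in the differences was not tested.

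Whether the change with laser differed between genotypes was tested as the interaction, which passed for 0 of 9 receptors and 0% of 19950 genes by limma. The lowest p was that of Cxcr4 (-0.92 ± 0.50, unadjusted p = 0.0769, adjusted p = 0.64), and 0 of 9 had an unadjusted p under 0.05, against 6.22% of all genes. Without libraries 14, 15 and 18 the lowest was that of Ccr1 (1.27 ± 0.69, unadjusted p = 0.0798, adjusted p = 0.999), again with 0 of 9 under 0.05, against 2.32% of all genes. The receptors called in only one genotype, Cx3cr1 and Cxcr4, were thus not shown to differ in their response between genotypes.

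Divided by transcript length, the levels of the receptors fell into an order that was different with laser. In wild type mice without laser Ackr3 led with 461 ± 59.7 normalized counts per kb (SD, n = 4), without overlap with the next, Ccrl2 (147 ± 46.9). Ackr1 (112 ± 43.5), Cxcr4 (84.5 ± 19.3), Cx3cr1 (42.7 ± 21.7), Ccr2 (31.7 ± 9.94), Cxcr6 (16.6 ± 9.15), Ccr1 (15.5 ± 5.54) and Ccr7 (7.49 ± 5.401) followed, each overlapping with its neighbour. In wild type mice with laser the level of Ackr3 was 418 ± 49.1 per kb (SD, n = 9). Ccr2 (239.9 ± 81.3), Cxcr4 (207 ± 73.5), Ccr1 (178 ± 34.4), Cx3cr1 (153 ± 19.2), Ccrl2 (148 ± 28.5), Ackr1 (117 ± 73.1), Ccr7 (53.4 ± 17.1) and Cxcr6 (23.6 ± 11.6) followed, again overlapping with their neighbours. By group mean, Ccr2 thus stood behind Cxcr4 and Cx3cr1 without laser and ahead of both with it. This order did not hold in every library. In laser library 2 Ccr2 (143 per kb) lay below Cxcr4 (241) and Cx3cr1 (176), and in library 27 without laser Ccr2 (38.6) lay above Cx3cr1 (31.1). In Ceacam1-/- mice without laser Ackr3 (473 ± 191 per kb, SD, n = 4) was also first, but overlapped with the next, Ackr1 (169 ± 91.03). In Ceacam1-/- laser mice the mean of Ackr1 was 398 ± 409.97 per kb (SD, n = 7), above that of Ackr3 (314 ± 149). Libraries 14, 15 and 18 raised this mean of Ackr1.

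Most myeloid markers also rose. With laser, 11 of 12 myeloid markers rose in wild type and 10 of 12 in Ceacam1-/- mice (11 of 12 without libraries 14, 15 and 18), among them the leukocyte phosphatase Ptprc (2.21 and 1.55 on the log2 scale) and Lyz2 (2.74 and 2.44), the most abundant of the list. Their sum ranged from 10501 to 21908 in wild type libraries without laser and from 50879.6 to 131249 with laser, and from 10382 to 15215 and 17381 to 94496 in Ceacam1-/- mice. Of 6 genes listed as monocyte markers 4 rose in each genotype, also in Ceacam1-/- mice without the 3 libraries. The first and the most abundant of the list were Ly6c2 (2.21 and 2.99) and the fibronectin gene Fn1 (2.10 and 1.73). Fn1 is not particular to monocytes, so its change cannot be assigned to them in bulk tissue. Of 9 markers of microglia and resident macrophages, 2 rose in wild type, 0 in Ceacam1-/- mice and 4 in the latter without libraries 14, 15 and 18. P2ry12 of microglia was at 0.79 (adjusted p = 0.394) and 0.44 (adjusted p = 0.673).

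Dendritic cell markers rose in 5 of 7 in wild type, 1 of 7 in Ceacam1-/- mice and 3 of 7 in the latter without libraries 14, 15 and 18. Flt3 was at 1.56 (adjusted p = 0.0307) and 1.17 (adjusted p = 0.137), and Fscn1, the most abundant, at 1.19 (adjusted p = 0.00614) and 0.63 (adjusted p = 0.182). Of the 3 neutrophil markers tested of 7, 2 rose in wild type and 1 in the knockout (2 without libraries 14, 15 and 18), with S100a8 at 2.37 (adjusted p = 0.0129) and 3.25 (adjusted p = 0.00315) and Csf3r at 1.85 (adjusted p = 0.0124) and 1.13 (adjusted p = 0.159). T and natural killer cell markers (0 of 8) and B cell markers (0 of 4) did not pass in either genotype, and 2 of the former passed in Ceacam1-/- mice without libraries 14, 15 and 18. Cd3e, the defining T cell marker, had group medians of 8.08 to 20.3 normalized counts. None of these markers was at 0 in all 24 libraries. The part of changed numbers of these cells in the receptor values was not tested.

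Measured against the myeloid sum, the receptors that rose did not keep one ratio. Ccr1 went from a median of 3.03 (range 2.21 to 3.35) to 6.05 (4.57 to 9.16) normalized counts per 1000 myeloid marker counts in wild type, without overlap. The ratio of Ccr1 went from 2.19 to 7.19 in Ceacam1-/- mice. Only laser library 15, at 4.40, overlapped there, with library 24 without laser at 4.66. Ccr2 went from 12.1 to 16.3, Ccr7 from 1.13 to 1.32, Cx3cr1 from 10.3 to 7.58 and Cxcr4 from 10.3 to 4.34 in wild type, all with overlapping ranges. Ackr3, at 105 and 15.6, and Ccrl2, at 23.02 and 4.43, had lower ratios in all laser libraries of wild type and likewise in Ceacam1-/- mice. In Ceacam1-/- mice Cxcr4 too was lower in all laser libraries, at 2.696 to 8.51 against 9.07 to 20.8. These ratios divide by markers that rose themselves, so a gene whose count stays level has a lower ratio with laser. The share of all genes whose ratios did not overlap was not computed, and no test was made on the ratios.

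**Figure D4:**
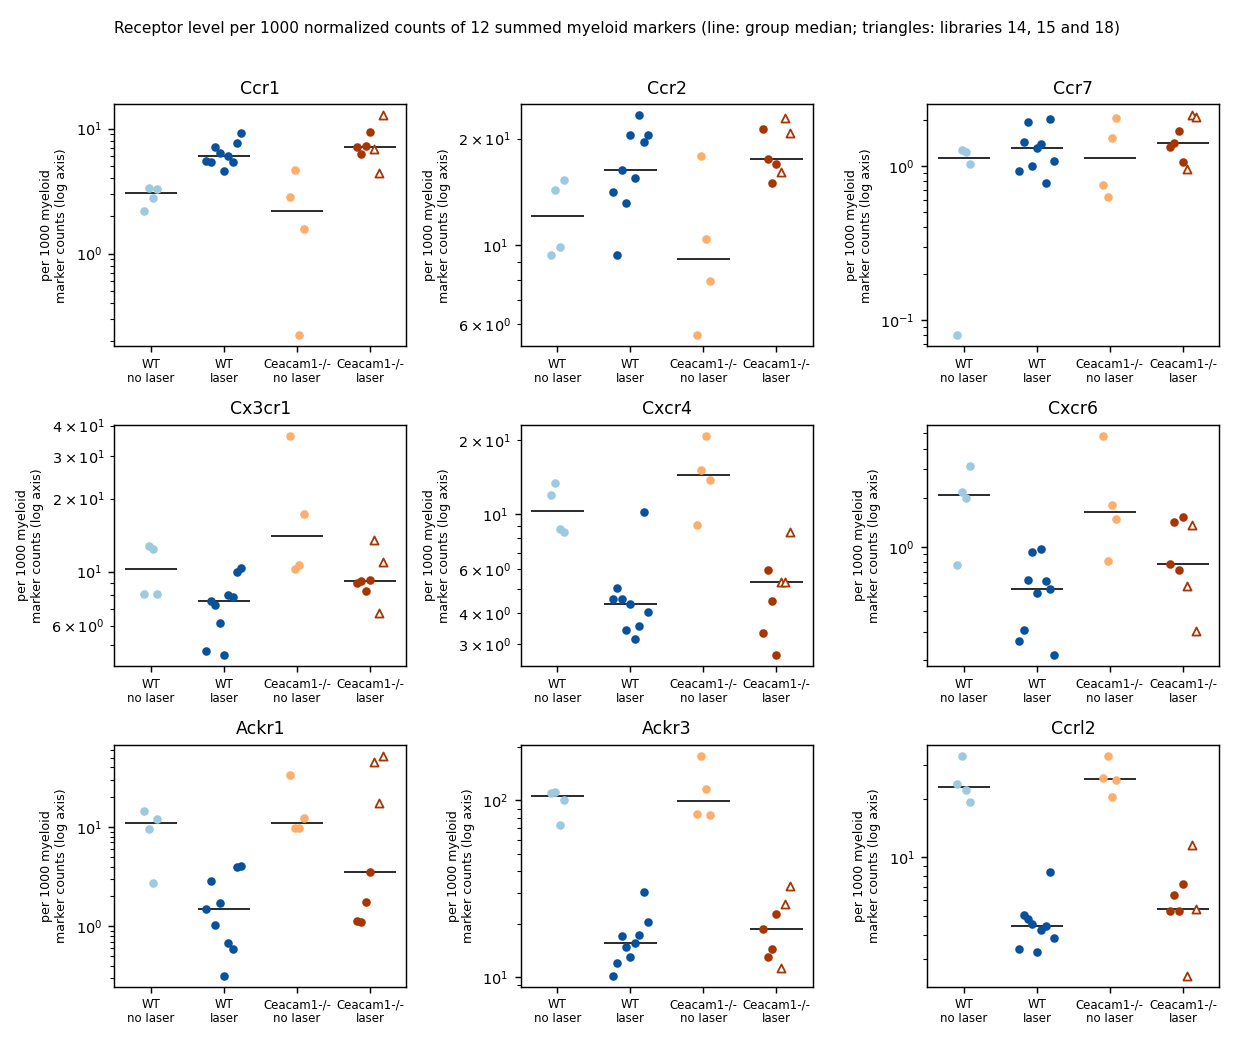
Normalized counts of each receptor per 1000 normalized counts of 12 summed myeloid markers (log axis), 1 point per library, by genotype and laser; lines are group medians and triangles are Ceacam1-/- laser libraries 14, 15 and 18. In wild type Ccr1 is higher in all 9 laser libraries (4.57 to 9.16) than without laser (2.21 to 3.35), and Ackr3 and Ccrl2 are lower. The myeloid sum itself rose with laser, so a gene whose count stays level has a lower ratio.

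Endothelial cells carry Ackr1, Ackr3 and part of Cxcr4. None of 10 endothelial markers passed in either genotype, with Pecam1 at 0.27 and -0.044 and Plvap, the most abundant, at 0.58 and -0.54. The median of the list was -0.27 in Ceacam1-/- mice and 0.43 without libraries 14, 15 and 18, where none passed either. Of 6 venular markers 1 rose in each genotype, Vcam1 in wild type (1.57) and Sele in Ceacam1-/- mice (2.29), both leukocyte adhesion molecules named after their values were seen. Selp was at 1.80 (adjusted p = 0.0596) and 0.90 (adjusted p = 0.399), and Vwf at 0.47 and -0.47. In Ceacam1-/- mice without libraries 14, 15 and 18, 3 of 6 rose, Vcam1 by 1.68 (adjusted p = 0.00138), Sele by 2.84 (adjusted p = 0.00192) and Selp by 1.60 (adjusted p = 0.0264), and the median of the list was 1.11 against 0.37 with them. Fibroblast and pericyte markers rose in 2 of 8 in wild type, 1 of 8 in Ceacam1-/- mice and 5 of 8 in the latter without libraries 14, 15 and 18. Pdgfra was at 0.98 (adjusted p = 0.143) and 0.55 (adjusted p = 0.457) and Col1a1 at 1.11 (adjusted p = 0.35) and 1.03 (adjusted p = 0.416). The endothelial sum was 10818, 21228 and 14797 in libraries 14, 15 and 18, where Ackr3 was lowest, and 33255 to 50701 in libraries 4 to 7. The part of endothelial RNA in the Ackr3 values was not tested.

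No marker of the remaining lists passed in either genotype with all libraries. These held mast cell (5 tested), melanocyte (6), retinal pigment epithelium (6), photoreceptor (8), skeletal muscle (8), erythroid (5) and Schwann cell (6) genes. In wild type and then Ceacam1-/- mice, the log2 changes were -0.37 and -0.35 for Kit, 0.35 and -0.74 for Mlana, 0.54 and -0.62 for Dct, 0.020 and -1.56 for Rpe65 and 0.23 and -1.71 for Ttr. They were -0.58 and -1.72 for Acta1, -1.21 and -2.34 for Atp2a1, 1.18 and 1.03 for Hbb-bs, 1.31 and 0.81 for Hba-a2 and -1.07 and -3.35 for Mbp. Without libraries 14, 15 and 18, 1 of these markers passed in Ceacam1-/- mice, the melanosome gene Pmel at 1.56 (adjusted p = 0.0418), named after its values were seen. In that setting Mlana was at 0.43 and Dct at 0.60, opposite in sign to the values with all libraries, and Rpe65 was at -0.46, Ttr at -0.78 and Mbp at -1.87. The median change in Ceacam1-/- mice, with and then without these 3 libraries, was -0.46 and 0.75 for melanocyte, -1.61 and -0.59 for retinal pigment epithelium, -1.10 and -0.052 for Schwann cell, -1.15 and -0.13 for mast cell, -2.07 and -1.55 for skeletal muscle and 0.81 and 1.74 for erythroid genes. That of the photoreceptor list was -1.48 in wild type and 2.30 and 0.55 in Ceacam1-/- mice.

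Ligands of these receptors rose in part. Of 18 ligands tested, 8 rose in wild type and 8 in the knockout, and none fell. Their median log2 changes were 1.48 and 1.48. The Ccr2 ligands Ccl7 and Ccl2 led, with Ccl7 at 3.12 ± 0.44 (adjusted p = 9.99e-05) and 3.13 ± 0.46 (adjusted p = 3.87e-04) and Ccl2 at 3.05 ± 0.40 (adjusted p = 4.86e-05) and 2.56 ± 0.42 (adjusted p = 0.00128). Ccl2 was between 41.2 and 83.3 normalized counts in the 4 wild type libraries without laser and between 328 and 1702 with laser, without overlap. Ccl12, another ligand of Ccr2, rose by 1.71 and 2.09. The ligands of Ccr1 rose as well, Ccl3 by 2.76 and 2.37, Ccl6 by 2.08 and 1.89 and Ccl9 by 2.00 and 2.24.

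Cxcl16, the ligand of Cxcr6, rose by 1.11 ± 0.25 (adjusted p = 0.00838) and 0.92 ± 0.26 (adjusted p = 0.0472), from a median of 662 to 1429.7 normalized counts in wild type, while Cxcr6 itself did not pass. Cxcl5, a neutrophil chemokine that Ackr1 can bind, rose by 2.14 and 2.22. The other 10 ligands did not pass in either genotype. Without libraries 14, 15 and 18, 11 of 18 passed in Ceacam1-/- mice. The additional 3, named after their values were seen, were Ccl5 at 1.61 (adjusted p = 0.0132), the chemerin gene Rarres2 at 1.04 (adjusted p = 0.0247) and Cxcl12, the ligand of Cxcr4 and Ackr3, at 1.49 (adjusted p = 6.33e-05). Cxcl12 was the most abundant ligand, with a median of 5091 without and 10083 normalized counts with laser in wild type, where its change of 1.09 (adjusted p = 0.105) did not pass.

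**Figure D5:**
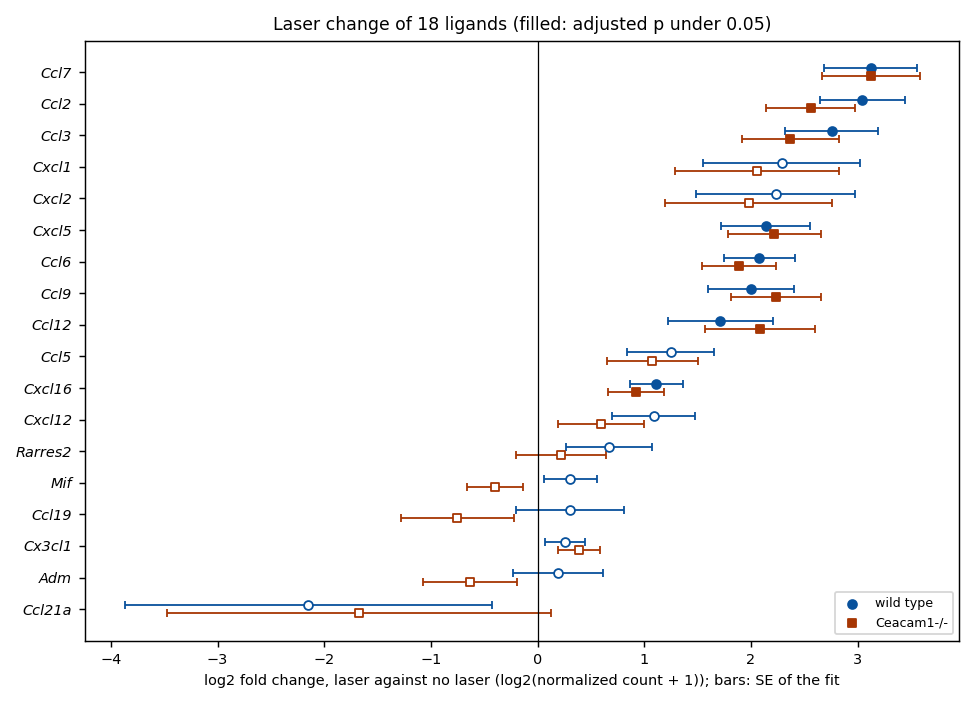
Log2 fold change, laser against no laser, of 18 ligands of the receptors, with the SE of the fit, in wild type and Ceacam1-/- mice; filled symbols have an adjusted p under 0.05. Filled symbols number 8 in each genotype, with Ccl7 and Ccl2 at 2.56 to 3.13.

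Of 16 other chemokine receptors, 9 were abundant enough to be tested. Of these, 1 passed as higher in each genotype and 2 in Ceacam1-/- mice without libraries 14, 15 and 18. Their median log2 changes were 0.99 in wild type, 0.25 in Ceacam1-/- mice and 1.437 in the latter without libraries 14, 15 and 18. The scavenging receptor Ackr4, named after its values were seen, was at 0.99 (adjusted p = 0.27) in wild type and at 1.55 (adjusted p = 0.0914) in the knockout, and rose by 2.53 (adjusted p = 1.30e-04) in the latter without libraries 14, 15 and 18.

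Genes of the signalling path inside the cell rose in part. Of 24 tested, 11 rose in wild type, 8 in Ceacam1-/- mice and 12 in the latter without libraries 14, 15 and 18. Their median log2 changes were 0.77, 0.64 and 0.88. Fgr (4.40 and 3.21) is a kinase of the Src family in myeloid cells, Vav1 (2.47 and 1.63) and Dock2 (1.56 and 1.35) activate Rac in leukocytes, and all 3 rose in both genotypes. Rac2, the Rac of blood cells, rose by 2.52 and 2.02, and Pik3r5, a regulatory subunit of phosphoinositide 3-kinase gamma, by 1.86 and 1.58. The catalytic subunit Pik3cg rose by 1.75 (adjusted p = 0.011) in wild type and was at 0.83 (adjusted p = 0.275) in Ceacam1-/- mice. On the side of desensitisation, Rgs1, which shortens G protein signals, rose by 3.15 and 2.63, and the arrestin gene Arrb2 by 0.78 and 0.78.

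The receptors differed in the genes they followed from library to library. By deviations of log2 values from group means, the 3 protein-coding genes most like Ccr1 over 24 libraries were Chil3 (r = 0.89), Sfrp4 (0.88) and Il21r (0.88). For Ccr2 they were Cd248 (r = 0.93), Fbn1 (0.92) and Col5a3 (0.92), for Ccr7 Plcb2 (r = 0.87), Pced1b (0.85) and Pimreg (0.84), and for Cx3cr1 Snx22 (r = 0.90), Pabpc4l (0.88) and Ly86 (0.86). Cxcr4 was most like Fxyd5 (r = 0.92), Lgals1 (0.91) and Selenom (0.91), and Cxcr6 like Ly9 (r = 0.83), Litaf (0.83) and Clec5a (0.82). Among the atypical receptors, Ackr3 was most like Cavin2 (r = 0.94), Itga5 (0.93) and Lama2 (0.93), Ccrl2 like Phlda3 (r = 0.94), Lgals9 (0.94) and Plvap (0.94), and Ackr1 like Zfp692 (r = 0.92), Tmsb15b1 (0.90) and Vps13c (0.90). The 3 genes most like Ccr2, Cd248, Fbn1 and Col5a3, are genes of stromal cells and their matrix.

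These likenesses rest in part on libraries 14, 15 and 18. Over the other 21 libraries, Cd248 was still among the 3 genes for Ccr2, Plcb2 for Ccr7, Pabpc4l and Snx22 for Cx3cr1, Fxyd5 for Cxcr4, and Vps13c and Zfp692 for Ackr1. For Ccr1, Ccrl2, Cxcr6 and Ackr3, none of the 3 genes was the same. Among pairs of receptor and ligand, r was 0.89 over all and 0.60 over 21 libraries for Ackr3 with Cxcl12, 0.83 and 0.61 for Ccrl2 with Rarres2, and 0.65 and 0.48 for Ccr2 with Ccl2. It was 0.59 and 0.38 for Cxcr4 with Cxcl12, 0.59 and 0.43 for Ccr1 with Ccl6, 0.57 and 0.39 for Ccr7 with Ccl19, and 0.55 and 0.10 for Cxcr6 with Cxcl16. For Cx3cr1 with Cx3cl1 it was higher without the 3 libraries, 0.32 over all and 0.51 over 21. The libraries share tissue composition and scaling, and no test was made on these values.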

How the data were processed

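RNA of the choroid was sequenced in 24 libraries, made with SMART-Seq mRNA LP and sequenced on an Illumina instrument. The authors checked reads with FastQC (0.11.5), quantified transcripts with Salmon (1.10.3) against GRCm39, summed them to genes with tximport and normalized with DESeq2 (1.44.0). The deposited table holds their normalized counts (a signal that is not a whole number of reads) for 56065 genes, and only 0.26% of its values above 0 lie within 0.001 of a whole number. The methods describe the comparison without laser, with sex as a covariate and 1 outlier removed. The labels give no sex, so none was used here. As the scaling sets each library against the others, a shift shared by a large part of the genes can move all values.

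Values were tested as log2(normalized count + 1) with limma (3.58.1, R 4.3.3) with a mean-variance trend, in genes with a mean of at least 10, with Benjamini-Hochberg adjustment over all genes tested and a threshold of 0.05. All 9 receptors passed the filter. Laser was tested in 1 model of the 4 groups, genotype in the 8 libraries without laser or the 16 with laser, and single receptors also by two-sided exact permutation tests over libraries. The labels do not say that libraries are separate animals, so p-values measure the spread between libraries. The fit was tested on simulated data. Alternatives were pseudocounts of 0.5 and 10, no filter or a mean of at least 50, quantile and upper-quartile scaling, array weights, no trend, a covariate of Y-linked genes, other libraries in the fit and each library left out.

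The receptors and all gene lists were chosen with earlier results of these data known. Named besides the receptors were the genes of the 3 pathway lists that passed, up to 8 by lowest p per list and comparison, the first and most abundant gene of each cell type list, and the 3 genes most like each receptor. Some genes that this rule names are not reported here. Coordinates and shared 31-base stretches are from GENCODE on GRCm39, and promoters are from RefSeq. Python 3.11.15 was used for the rest.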

Additional observations from a re-analysis of the deposited data

Results flagged for a closer look

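In 36 sets of 4, 7 or 9 libraries, 9 receptors in each of 4 groups, 2 values lay far from the others of their group by Dixon's test, and chance alone flags about 1 in 20 such groups. Ccr1 in wild type laser library 1 was at 728 normalized counts, and the next of the 9 libraries was at 553. Ccrl2 in wild type laser library 19 was at 214, and the next lowest was at 334.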

How the results depend on the processing

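The calls of Ccr1, Ccr2, Ccr7 and Cx3cr1 with laser in wild type and of Ccr2 in Ceacam1-/- mice held under every alternative and with each library left out. The call of Cxcr4 in wild type was lost with no filter (1.24, adjusted p = 0.0597), quantile normalization (1.28, adjusted p = 0.0529), a Y-linked covariate (adjusted p = 0.0786) and the run 11 to 19 alone (1.07, adjusted p = 0.0629). That of Ccr7 in Ceacam1-/- mice was lost with no filter (adjusted p = 0.0688), quantile normalization (0.0537), a fit of the libraries compared alone (0.167) and the run 11 to 19 alone (0.209). The number of receptors called with laser in Ceacam1-/- mice, 3, was 5 with array weights, 1 with a fit of the libraries compared alone, 5 with libraries 14, 15, 18, 21 and 23 left out and 5 with the run 11 to 19 alone. Cx3cr1 and Cxcr6 were the added calls with array weights (1.91 and 2.25) and without the 5 libraries (2.04 and 2.15). With genotype in laser mice it was 8 in that run against 0. With 1 library left out it was 4 to 5 in wild type and 2 to 4 in Ceacam1-/- mice for laser, and 0 for the other comparisons. Where a call was lost or gained, the cause was not tested.

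Over all genes, 1053 calls with laser in wild type became 6505 with array weights (3238 higher and 3267 lower, against 844 and 209), 2274 with the libraries compared alone and 1645 without the 5 libraries. In Ceacam1-/- mice 742 became 437 with no filter, 3551, 38 and 2923 under those 3 settings, 2005 without libraries 14, 15 and 18 and 2907 with the run 11 to 19 alone. With 1 library left out they ranged from 479 to 1162 and from 148 to 2488. Genotype with laser gave 4 genes, 297 with array weights and 9 with all 24 libraries in the fit. It gave 2 with a mean of at least 50, 2 without libraries 14, 15 and 18, 0 in the run 1 to 7, 7552 in the run 11 to 19 and 4 to 61 with 1 library left out. Genotype without laser gave 0 genes, and 1 with upper-quartile scaling, array weights or no trend and 1 when library 24 was left out.

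Changes that did not pass could turn in sign (log2 values). With laser in wild type these were Ccrl2 -0.13 without the 5 libraries and -0.079 in the run 11 to 19, and Ackr1 0.39 in the run 1 to 7. In Ceacam1-/- mice they were Ccrl2 0.16 with array weights, Ccrl2 0.42 and Ackr1 -0.13 without the 5 libraries, Ccrl2 0.51 and Ackr1 -0.45 without libraries 14, 15 and 18, and Cxcr4 -0.29 and Cxcr6 -0.60 in the run 11 to 19. In the interaction they were Ccr2 0.049 and Ccr7 0.026 with array weights, Cxcr6 -0.026 with the Y-linked covariate, and Ccr2 0.57, Ccrl2 0.48, Ackr1 -0.30 and Ackr3 0.058 without libraries 14, 15 and 18. Between genotypes without laser they were Ccr7 -0.14, Ccrl2 0.27, Ackr1 -0.065 and Ackr3 0.31 with array weights and Ccr7 -0.16, Cx3cr1 -0.077 and Ackr3 0.088 without libraries 21 and 23. Between genotypes with laser they were Cxcr6 0.076 with a pseudocount of 10 and 0.0067 with upper-quartile scaling, Ccr1 0.0065, Ccrl2 0.27, Cx3cr1 0.12 and Cxcr6 0.68 with array weights, Ccr1 0.20, Ccr2 0.043, Ccr7 0.042, Ccrl2 0.37, Cx3cr1 0.27, Cxcr6 1.02 and Ackr3 0.017 without libraries 14, 15 and 18, and Ccr2 0.11, Ccrl2 0.14, Cx3cr1 0.15, Cxcr6 1.16, Ackr1 -0.29 and Ackr3 0.065 in the run 1 to 7. With 1 library left out, the changes ranged from -0.13 to 0.19 for Ccrl2 and -0.48 to 0.054 for Ackr1 with laser in wild type, and from -0.45 to 0.022 for Ccrl2 in Ceacam1-/- mice. In the interaction they ranged from -0.29 to 1.04 for Ccr1, -0.44 to 0.21 for Ccr2 and -0.16 to 0.73 for Cxcr6. Between genotypes they ranged from -0.42 to 0.89 for Ccr7, -0.28 to 0.18 for Ackr3, -0.73 to 0.15 for Cxcr6 and -0.27 to 0.042 for Ccrl2 without laser, and from -0.25 to 0.44 for Cxcr6 with laser.

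No paired analysis was possible because each library has a number of its own that no other group shares. Settings that leave out libraries 14, 15, 18, 21 or 23 together, or that keep 1 run of laser libraries, were chosen after seeing the data. Read depth is unknown, which limits what can be said of low genes such as Ccr7 and Cxcr6.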
